A study of Oryza sativa with 6 samples.

Results

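The results below concern AK065302 and AK060292, 2 accessions of 21495 rice accessions on the array, each measured by 1 probe and each described by the array design as the rice cytochrome P450 CYP87A3. They were chosen on their measured log2 ratio between the lines under control and under phosphorus (P) deficiency and on how close the 2 probes lie, so these values are given as a description with no test. The same description stands at 4 further probes, which were not chosen. Whether AK065302 and AK060292 read 1 gene or related genes was not tested, since no probe sequence was used here. The RefSeq gene table matched neither accession and lists CYP87A3 as a synonym of 1 gene, LOC4336709.

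RNA came from roots of rice grown in 12 L pots of Andosol, a volcanic soil. Control soil had a high P content, and P-deficient soil was without P. The lines compared were the japonica cultivar Nipponbare and 6-4, a near-isogenic line (NIL) into which segments of the indica cultivar Kasalath were introduced, so both share a common background outside those inserts. Each condition had 3 biological replicates of each line, and each of the 6 arrays held both lines of 1 condition and replicate in Cy3 and Cy5. The 6-4 RNA was in Cy5 on control replicate 2 and P-deficient replicates 1 and 3, and in Cy3 on the other arrays. The line 6-4 is 1 inbred line, and a probe can bind a Kasalath form of a transcript differently, which cannot be told apart from its level.

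Cytochromes P450 are heme enzymes of the endoplasmic reticulum that insert oxygen into small molecules, with electrons from NADPH-cytochrome P450 reductase or cytochrome b5. Plants have large families of them, which make and break down hormones, sterols and defence compounds. CYP87 belongs to the CYP85 clan, whose other families include enzymes of brassinosteroid, gibberellin and abscisic acid metabolism. CYP87A3 is known in rice coleoptiles as a gene that responds early to auxin.

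Both probes were well above local background in all 12 channels, with no saturated and no outlier spot. The number of arrays, 3 per condition, limits the precision of every value. Across arrays 89.8% to 95.5% of probes were well above background in Cy3 and 95.0% to 99.5% in Cy5. Negative control spots were 1.19 to 5.06 times their local background in Cy3, highest on control replicate 2 and P-deficient replicate 2, and 1.06 to 1.10 times in Cy5. Of 11 root marker probes (RCc, root-specific and IRT1) 10 were well above background in every channel, and none of 11 was below it in all. Of 37 probes for photosystem, chlorophyll-binding and Rubisco small subunit proteins 26 were above it in every channel.

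With P supplied, both CYP87A3 probes gave a higher signal in 6-4 than in Nipponbare on all 3 arrays. The log2 ratio of 6-4 over Nipponbare at AK065302 was 0.88, 1.07 and 1.87 on control replicates 1, 2 and 3, with a mean of 1.27 ± 0.52 (SD, n = 3). At AK060292 it was 0.81, 1.03 and 2.0, with a mean of 1.28 ± 0.63 (SD, n = 3). Replicate 3 stood above the other two at both probes. A limma fit over all probes with a term for the dye gave 1.33 (SE 0.25), or 2.51-fold, for AK065302 and 1.32 (SE 0.27), or 2.49-fold, for AK060292. They ranked 6 and 7 of 20528 probes from the highest in 6-4. Without control replicate 3 these fitted ratios were 0.98 and 0.92, and without control replicate 2 they were 1.85 and 1.80. In the latter fit 6-4 was in Cy3 on both control arrays left, so the dye term came from the P-deficient arrays alone. Those control arrays themselves were at 0.88 and 1.87 at AK065302, and at 0.81 and 2.0 at AK060292.

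**Figure D1:**
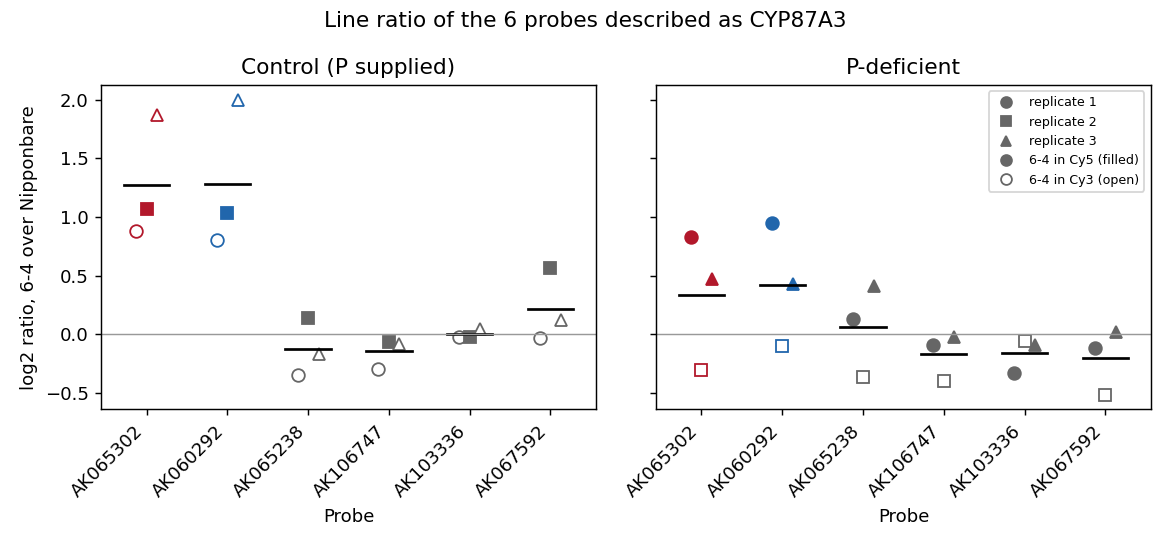
The log2 ratio of 6-4 over Nipponbare is plotted for the 6 probes described as CYP87A3, under control (left) and P deficiency (right). Each symbol is 1 array, filled where 6-4 was in Cy5 and open where it was in Cy3, and black bars are means of 3 arrays. AK065302 and AK060292 lie between 0.81 and 2.0 under control, above every value of the other 4 probes, and spread from -0.30 to 0.95 under P deficiency.

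Without P the ratio was smaller and the arrays did not share a direction. The log2 ratio at AK065302 was 0.83, -0.30 and 0.48 on P-deficient replicates 1, 2 and 3, with a mean of 0.33 ± 0.58 (SD, n = 3). At AK060292 it was 0.95, -0.10 and 0.43, with a mean of 0.43 ± 0.52 (SD, n = 3). Only replicate 2 was below 0, at both probes, and it was the only P-deficient array with 6-4 in Cy3. The line in Cy3 was thus the lower one on every P-deficient array. The fit gave 0.28 (SE 0.25), or 1.21-fold, and 0.39 (SE 0.27), or 1.31-fold. From the highest in 6-4 they ranked 2302 and 1131 of 20528. Without P-deficient replicate 1 the fitted ratios were 0.087 and 0.17, and without P-deficient replicate 2 they were 0.81 and 0.87. In the latter fit 6-4 was in Cy5 on both P-deficient arrays left, so the dye term came from the control arrays alone. Those P-deficient arrays themselves were at 0.83 and 0.48 at AK065302, and at 0.95 and 0.43 at AK060292.

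The ratio under P deficiency minus that under control was -1.05 (SE 0.36) at AK065302 and -0.92 (SE 0.39) at AK060292. At AK065302 the highest P-deficient array (0.83) lay just below the lowest control array (0.88). At AK060292 P-deficient replicate 1 (0.95) lay above control replicate 1 (0.81), so the conditions overlapped. The fit held 1 dye term over both conditions, 0.16 and 0.10 on the log2 scale. A dye effect that differs between the conditions is therefore not taken out. Under control at AK065302, the array with 6-4 in Cy5 (1.07) lay between those with 6-4 in Cy3 (0.88 and 1.87). Under P deficiency both arrays with 6-4 in Cy5 (0.83 and 0.48) lay above that with 6-4 in Cy3 (-0.30). AK060292 had the same orders. The part of the dye in the sign on P-deficient replicate 2 was not tested.

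Replicate 2 of both conditions had the brightest negative controls in Cy3, and the line in Cy3 there was close to them. On P-deficient replicate 2, the array with a ratio below 0, the Cy3 signal of 6-4 was 1.22 times the median negative control spot at AK065302 and 1.28 times at AK060292. On control replicate 2 the Cy3 signal of Nipponbare was 1.41 and 1.34 times that median. The Cy3 signal of Nipponbare was also low on P-deficient replicates 1 (1.85 and 1.69 times) and 3 (2.22 and 2.28 times). That of 6-4 was 2.81 and 2.65 times the median on control replicate 1, and 18.5 and 19.7 times that median on control replicate 3. Cy5 signals were 5.32 to 20.5 times it over all 6 arrays. With background taken from the negative control spots, an alternative chosen after seeing the data, the ratio on P-deficient replicate 2 was -0.38 at AK065302 and -0.11 at AK060292. The part of this background in the line ratios and in the mean response was not tested further.

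The 2 probes gave nearly the same ratio on each array. The ratio of AK065302 minus that of AK060292 was 0.07, 0.03 and -0.13 on control replicates 1 to 3, and -0.11, -0.20 and 0.05 on P-deficient replicates 1 to 3. It averaged -0.05 ± 0.12 (SD, n = 6) and was above 0 on 3 of 6 arrays. The ratio of either probe varied more over the same arrays, with SDs of 0.71 and 0.70. Over the 12 channel levels the probes correlated at r = 0.991, and over the 6 ratios at r = 0.987. These points share arrays, RNA and labelling, so the correlations are descriptions only. The spots lie apart on the array, in row 33 and column 215, the last column, and in row 54 and column 186.

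**Figure D2:**
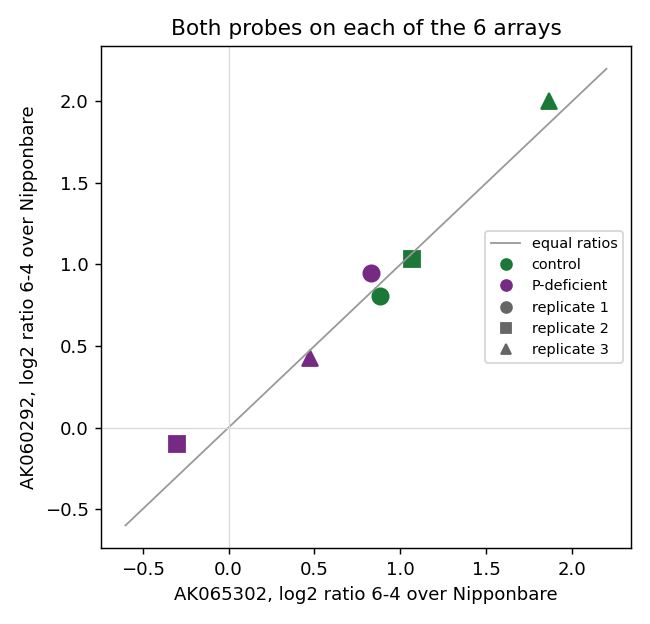
The log2 ratio of 6-4 over Nipponbare at AK060292 (vertical) is plotted against that at AK065302 (horizontal) for the 6 arrays, in green for control and purple for P deficiency. All points lie near the line of equal ratios, at most 0.20 from it in the vertical direction, and P-deficient replicate 2 is the only array below 0 at both.

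The levels of the lines ran in the same order at both probes, from 6-4 under control, through Nipponbare under control and 6-4 without P, to Nipponbare without P. As normalized log2 intensity, AK065302 was at 9.52, 9.76 and 10.64 in 6-4 under control and at 8.63, 8.70 and 8.78 in Nipponbare under control. Without P it was at 8.61, 8.18 and 7.91 in 6-4 and at 7.77, 8.48 and 7.44 in Nipponbare. The 6-4 control samples lay above all others, Nipponbare control samples lay just above those of 6-4 without P, and the lines overlapped without P. The group means were 9.97 ± 0.59, 8.70 ± 0.07, 8.23 ± 0.35 and 7.90 ± 0.53 (SD, n = 3 each), so the step between the lines without P was smaller than the SD of either group, and both steps above it were larger. Nipponbare under control had the smallest spread of the 4 groups. AK060292 had means of 9.89 ± 0.72, 8.61 ± 0.11, 8.24 ± 0.33 and 7.82 ± 0.57 (SD, n = 3 each), with the same overlaps. Its step between the lines without P exceeded the SD of 6-4 but not that of Nipponbare.

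**Figure D3:**
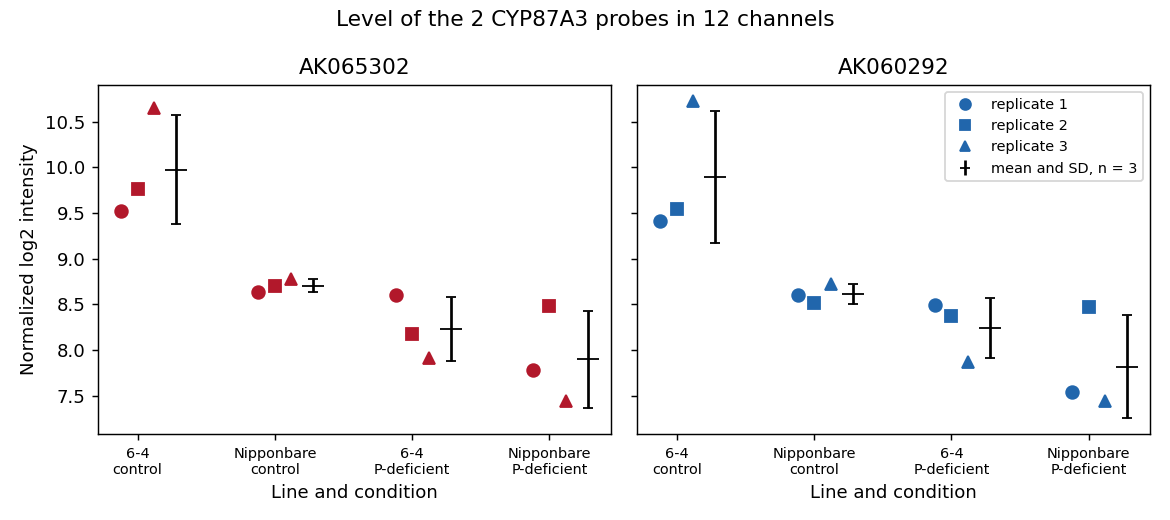
The normalized log2 intensity of AK065302 (left) and AK060292 (right) is plotted for each line and condition, with 1 symbol per replicate and black bars for the mean and SD of 3 samples. The 6-4 control samples are highest, between 9.41 and 10.73, and the P-deficient samples of both lines overlap between 7.44 and 8.61.

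Averaged over the lines, the signal of AK065302 and AK060292 was lower in roots without P. The rule that chose the probes does not name this contrast, but they were chosen with earlier results of these data known. The contrast also includes the 6-4 control channels, the highest group at both probes, which enter the line ratio that the rule used. Its p-values and ranks are therefore not independent of the choice. The mean log2 intensity of both channels at AK065302 was 9.08, 9.23 and 9.71 on the control arrays and 8.19, 8.33 and 7.68 on the P-deficient arrays. At AK060292 it was 9.0, 9.03 and 9.73 against 8.01, 8.42 and 7.65. The conditions did not overlap at either probe, which held for 8.81% of all probes in the direction of a fall. AK065302 fell by 1.27 (SE 0.22), or 2.42-fold (limma, adjusted p = 0.0294). AK060292 was at -1.22 (SE 0.25), or 2.34-fold lower, and missed the threshold of 0.05 (limma, adjusted p = 0.0547). Thus 1 of the 2 probes was called lower, against 0.458% of the 20531 probes tested, and they ranked 26 and 31 from the lowest response.

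With the replicate number as a block, both probes passed (limma, adjusted p = 0.0146 for AK065302 and adjusted p = 0.0275 for AK060292). Both also passed with the version of the array reading software as a block (limma, adjusted p = 0.0170 and adjusted p = 0.0339). Within the arrays read with version 7.1, replicates 1 and 2, the responses were -0.89 and -0.80, and between the 2 arrays of replicate 3, read with version 8.1, they were -2.03 and -2.07. The call of AK065302 was lost whichever 1 of the 6 arrays was left out (limma, adjusted p from 0.0513 to 0.10) and under 4 other settings, with the direction kept in each. Those were Agilent's processed signals (limma, adjusted p = 0.112), medians subtracted between arrays (limma, adjusted p = 0.0761), replicates 1 and 2 alone (limma, adjusted p = 0.0530) and the 12 single channels (limma, adjusted p = 0.275).

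Of 10 root marker probes tested, 3 fell and 0 rose without P, beside 0.458% of all probes called lower, and 8 had a response below 0. Their summed intensity was 62664 to 73039 on the control arrays and 43364 to 43779 on the P-deficient arrays. The green tissue probes had 0 of 33 called in limma (1 rose with the replicate block), with summed intensities of 21890 to 28294 and 23014 to 25563. In whole roots, fewer cells of a type and less RNA per cell cannot be told apart, and the part of root cell types in the lower signal of AK065302 and AK060292 was not tested. Between the lines under control the summed root markers overlapped, at 63691 to 73866 in 6-4 and 56766 to 73085 in Nipponbare. Under P deficiency 2 of 10 root marker probes were higher in 6-4 and 0 lower in limma, beside 8.94% of all probes called, with a median log2 ratio of 0.24, against 0.28 and 0.39 at AK065302 and AK060292. Their part in those ratios was not tested.

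Within each line, both probes had a lower fitted level without P. In 6-4 the response was -1.80 (SE 0.44), or 3.47-fold lower, at AK065302 and -1.69 (SE 0.48), or 3.22-fold lower, at AK060292. In Nipponbare it was -0.75 (SE 0.44) and -0.76 (SE 0.48), or 1.68-fold and 1.70-fold lower. The responses of the lines differ by the change of the line ratio, on which the probes were chosen, so no test is given.

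The other 4 probes with the CYP87A3 description did not share these values. On replicate 2 of both conditions their Cy3 signal was close to that of the negative control spots. It was 5.12 to 6.2 times local background on control replicate 2, where the negative controls were at 5.06 times. On P-deficient replicate 2 it was 5.01 to 5.92 times. The part of this low signal in the ratios and responses of these 4 probes was not tested. Under control their fitted log2 ratios of 6-4 over Nipponbare were -0.04 (AK065238), -0.11 (AK106747), -0.02 (AK103336) and 0.30 (AK067592). AK067592 passed limma's test (adjusted p = 0.0432) but not with the replicate block (limma, adjusted p = 0.141), and 1 of 4 called compares with 12.9% of all probes. Under P deficiency their ratios were -0.02, -0.21, -0.14 and -0.29, and 0 of 4 passed (limma, adjusted p from 0.0580 to 0.874), against 8.94% of all probes. AK067592 alone changed its ratio between the conditions (limma, adjusted p = 0.0138), 1 of 4 against 19.6% of all probes.

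Their mean responses to P deficiency were -0.12, 0.75, 0.30 and -0.03 in the same order. Of the 4, 0 passed (limma, adjusted p from 0.529 to 0.989), where 1.52% of all probes were called in either direction. AK106747 had 1 array apart, P-deficient replicate 2 at a log2 intensity of 8.19, against 6.56 and 6.85 on the other P-deficient arrays and 6.31 to 6.73 on the control arrays. It was not well above background in 6-4 on control replicate 1 or in Nipponbare on control replicate 2. Over the 12 channels the levels of these 4 probes correlated with AK065302 or AK060292 at r from -0.39 to 0.20, a description over channels that share arrays.

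The P450 probes other than AK065302 and AK060292, among them the 4 others described as CYP87A3, gave the range around these responses. Of 125 tested probes described as cytochrome P450, 7 rose and 0 fell without P, where 1.52% of all probes were called in either direction. Their median response was 0.11, against -0.007 over all probes, and their lowest was -0.67, above the values of AK065302 and AK060292. The 3 with the smallest p were AK072715, AK066285 and AK111441. AK072715, a P450 of no stated function, was at 2.05 (SE 0.19, limma adjusted p = 0.00175). AK066285, described as an ent-kaurene oxidase, was at 1.18 (SE 0.17, limma adjusted p = 0.0147). AK111441, described as CYP71D4, was at 1.15 (SE 0.18, limma adjusted p = 0.0192). With the replicate block 16 of the 125 passed, beside 4.32% of all probes in that fit, and without single arrays 1 to 5, with the fewest, 1, without control replicate 2 or P-deficient replicate 1 or 2. The share of all probes called without single arrays is not given here, for this list or those below.

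**Figure D4:**
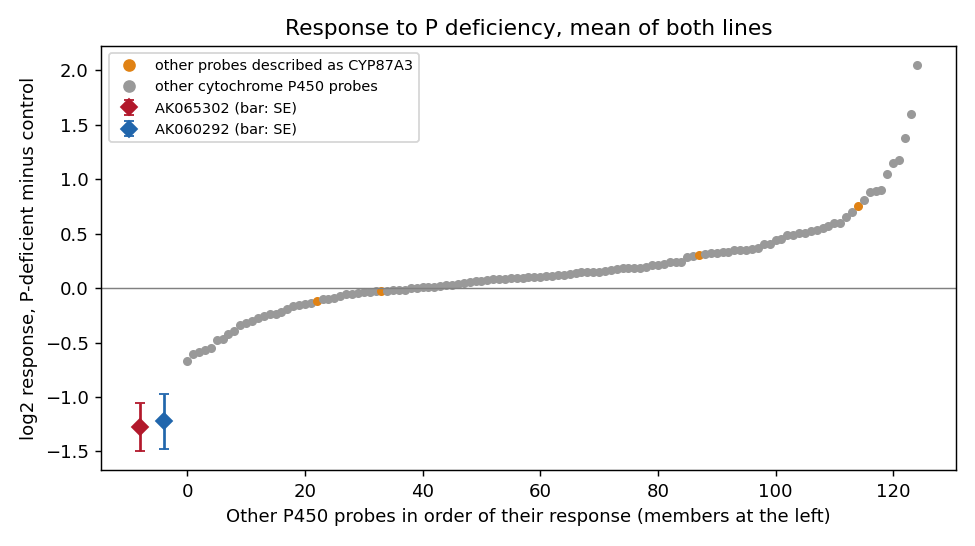
The log2 response of the lines' mean level to P deficiency is plotted for AK065302 and AK060292 (diamonds with SE) and for 125 other cytochrome P450 probes in order of their response, with the 4 other probes described as CYP87A3 in orange. AK065302 and AK060292 lie at -1.27 and -1.22, and the other probes run from -0.67 to 2.05.

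In the CYP85 clan, to which CYP87 belongs, 2 of 17 other probes rose and 0 fell, beside 1.52% of all probes called in either direction. The median response was -0.03. The 17 include the 4 other probes described as CYP87A3. AK109627, described as a taxane 13-alpha-hydroxylase of yew, rose by 2.03 (SE 0.19, limma adjusted p = 0.00175). AK069429, described as maize DWARF3, a kaurenoic acid oxidase of gibberellin synthesis, rose by 1.61 (SE 0.29, limma adjusted p = 0.0340). AK073618, named for a taxadienol hydroxylase of yew, was at -0.50 (SE 0.14, limma adjusted p = 0.194). Both risen probes entered the list through words corrected after the descriptions were read, and with the words as first written 0 were called. Without control replicate 1 or 2, or P-deficient replicate 2 or 3, 1 of the 17 was called.

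Of 84 auxin-related probes 3 rose and 0 fell, beside 1.52% of all probes called, with a median of 0.06. The risen probes were 2 GH3 proteins, a family of enzymes that join auxin to amino acids, at 0.92 (AK101193, SE 0.15, limma adjusted p = 0.0192) and 0.80 (AK102809, SE 0.15, limma adjusted p = 0.0434). The third was ILR1, which releases auxin from such conjugates, at 2.05 (AK110647, SE 0.35, limma adjusted p = 0.0276). With the replicate block 7 auxin-related probes passed, beside 4.32% of all probes in that fit. Without control replicate 1 or 2 or P-deficient replicate 2 none did, and without P-deficient replicate 1, 1 did.

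Of 8 probes for electron donors of P450 enzymes 0 passed in limma, where 1.52% of all probes did, with a median of -0.03. Cytochrome b5 was at -0.21 (AK058780, SE 0.13, limma adjusted p = 0.669), a cytochrome b5 reductase at -0.27 (AK071883, SE 0.24, limma adjusted p = 0.812) and a P450 reductase at 0.19 (AK102060, SE 0.19, limma adjusted p = 0.858).

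Among 20052 probes measured in all 12 channels, 14 had levels that correlated with the mean of AK065302 and AK060292 at r above 0.9. The 5 described probes most like them were the phosphoinositide-binding protein Ssh1p (AK068100, r = 0.940), a phosphatidylinositol transfer-like protein (AK063554, r = 0.935), a GTP-binding protein (AK060246, r = 0.926), glutamate dehydrogenase (AK071839, r = 0.913) and the MYB103 factor (AK111808, r = 0.913). Their ratios of 6-4 over Nipponbare under control were 0.28 to 0.34, far smaller than at AK065302 and AK060292. Their responses to P deficiency ran from -0.44 to -0.26. Of the 5, 0 passed (limma, adjusted p from 0.279 to 0.515), where 1.52% of all probes were called in either direction. The 12 channels share 6 arrays, so these correlations are descriptions only.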

How the data were processed

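The authors read each dye's intensity (the mean of a spot and the median of its surroundings) with Agilent Feature Extraction 7.1 or 8.1, per the file headers. The headers name 7.1 for replicates 1 and 2 and 8.1 for replicate 3, but 8.1 is named for P-deficient replicate 2 in the submitters' processing notes. The deposited log10 ratios of Cy5 over Cy3 had been corrected for background and dye there, per the file headers, and the deposited table of the series holds them as 6-4 over Nipponbare.

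With limma 3.58.1 in R 4.3.3, signals were corrected by normexp (offset 50) and loess, with control and outlier spots at weight 0. Of 21495 probes 20531 were kept, those that in some line and condition exceeded background clearly on all 3 arrays, and AK065302 and AK060292 both passed. Line ratios came from lmFit and eBayes with terms for condition and dye order. The mean response was fitted on mean log2 intensities of the 2 channels after Aquantile, and responses within lines on single channels (lmscFit, intraspot correlation 0.794 from 2000 probes). Adjusted p is Benjamini-Hochberg over all probes tested, with a threshold of 0.05. The fits were tested on simulated data.

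The members, lists and tests were chosen with earlier results of these data known, and list words were corrected after the descriptions were read. From each list the 3 probes with the smallest p in the mean response are named, and by likeness the 5 described probes with the highest r. Around the means of their conditions, arrays with the same number varied together in level (r over probes 0.402, 0.315 and 0.661). Control replicate 2 with P-deficient replicate 1 was at 0.277, and control replicate 1 with P-deficient replicate 2 at 0.101. Replicate 3 with arrays of another number was at -0.531 to -0.301. Levels thus set replicate 3 apart, but replicates 1 and 2 little from each other. Replicate numbers, shared by the labels, were taken to pair the arrays. In line ratio the pairs of the same number varied in opposite directions (r over probes -0.604, -0.751 and -0.371), and their dye orders were opposite. Line ratio tests with the replicate block thus use a pairing seen in level only, and there mainly for replicate 3. Per the file headers, the pair of replicate 3 (r = 0.661 in level) was read with another software version than the other pairs. The part of dye order and software version in these correlations was not tested. Alternatives covered background, normalization, probe filter, dye term, blocks, single channels and each array left out.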

Additional observations from a re-analysis of the deposited data

Results flagged for a closer look

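The line ratio of AK067592, another probe described as CYP87A3, differed between the conditions, from 0.30 under control (SE 0.07) to -0.29 under P deficiency (SE 0.07), a change of -0.59 (SE 0.11, limma adjusted p = 0.0138, and adjusted p = 0.0477 with the replicate block). The test of this difference called 19.6% of all probes. On single arrays the ratio was -0.03, 0.57 and 0.12 under control and -0.12, -0.51 and 0.02 under P deficiency. The conditions thus overlapped before the fitted dye term of 0.25 was taken out. In each condition the ratio furthest from 0 was on replicate 2, where the Cy3 signal was close to the negative control spots. On control replicate 2 it was 5.59 times local background, against 5.06 times for the negative controls. On P-deficient replicate 2 it was 5.01 times. The part of this low signal in the change of the ratio was not tested.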

How the results depend on the processing

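Neither the line ratios and mean responses of AK065302 and AK060292 nor the sign of the difference between the probes changed direction under any alternative that was run. The line ratio under control stayed between 1.08 and 1.53 at both probes under every alternative other than leaving out arrays, which gave 0.98 to 1.85 at AK065302 and 0.92 to 1.80 at AK060292. Under P deficiency the same settings gave 0.22 to 0.58, and leaving out arrays 0.087 to 0.81 and 0.17 to 0.87. The highest value under each condition, without its replicate 2, took the dye term from the arrays of the other condition alone. The mean response of AK065302 lost its call with Agilent's processed signals (-1.60), medians subtracted between arrays (-1.34), replicates 1 and 2 alone (-0.89) and single channels (-1.27, with a larger SE), and without single arrays (-1.41 to -1.08). That of AK060292, -1.42 to -0.99 without single arrays, passed with the replicate block (-1.22) and with the software version as a block (-1.22). The replicate block moved the calls over all probes from 312 to 886, those of other P450 probes from 7 to 16 and of auxin-related probes from 3 to 7. On further probes and the marker lists, where the block was an alternative chosen after seeing the data, it ended the call of AK067592 under control, moved green tissue probes from 0 to 1 call and root markers from 3 to 4, and changed the call of no other probe the text names. Without single arrays the other P450 probes had 1 to 5 calls, the auxin-related probes 0 to 2 and the CYP85 clan 1 to 2. The share of all probes called in those fits is not given here. With the list words as first written the CYP85 clan had 0 calls in the main fit. The causes were not tested.

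Signal over background limits the Cy3 values. There AK065302 and AK060292 were as low as 1.22 times the median negative control spot.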
